A study of Mus musculus with 21 samples.

Results

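Rab GTPases are small membrane-bound switches that give each vesicle and organelle its identity, and 59 genes of this family were read out here in sorted mouse monocytes and macrophages before, during and after zymosan peritonitis. The members were all genes whose symbol is Rab followed by a number and at most 1 letter, out of 18194 genes that have at least 1 probe set of their own. Where a gene had several, the brightest on average over the 21 arrays stood for it. Of the 59, 50 exceeded 80.6, the median of all deposited signals, on 3 or more arrays and were tested among 12169 genes. No group mean passed 200 for 16 members, which are called low. Rab23 lay just under that mark with a highest group mean of 199.5, and Rab34 just over it with 218.

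A Rab cycles between a GTP-bound form on a membrane and a GDP-bound form that an escort protein holds in the cytosol. Exchange factors load GTP, most of the GTPase-activating proteins carry a TBC domain and end the signal, and effectors such as tethers and motor adaptors act only while GTP is bound. In macrophages, Rab5 and Rab7 proteins mark the early and late phagosome in turn, Rab11 and Rab4 proteins return membrane and receptors to the surface, and Rab27 and Rab3 proteins dock secretory granules and lysosome-related organelles.

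All animals were female C57BL/6 mice of 7 to 8 weeks. Peritonitis was started by injecting zymosan, particles of yeast cell wall taken up by phagocytes, into the peritoneal cavity. The labels call the 3 replicates of each group biological, and whether an array held RNA of 1 mouse or of several is not given in the sources used here. The inflamed groups were Ly-6B+ Ly-6G- monocytes of 4 h, Ly-6G- monocyte/macrophages of 18 h that were positive or low for Ly-6B, F4/80+ CD11b+ macrophages of 72 h, and at 168 h both Ly-6B+ macrophages of medium to high F4/80 and Ly-6B- macrophages of high F4/80. Mice without zymosan gave 2 groups, Ly-6B+ Ly-6G- monocytes from the bone marrow and, from the peritoneum, resident macrophages with high F4/80 and high CD11b. No group was a vehicle-injected control. Ly-6B is a surface antigen of monocytes and neutrophils, Ly-6G marks neutrophils, and F4/80 and CD11b are antigens by which the labels name macrophage groups. Peritoneal cells came from lavage and marrow cells from flushed bones, and this difference in handling goes with every comparison against marrow.

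Marker genes were compared with the labels, as signals summed over each list. Resident macrophage genes (15 of 15 listed were measured) summed to 351080 to 388960 in resident macrophages and to 27239 to 29094 in marrow monocytes, where 11 of the 15 had a group mean under 80.6. Neutrophil genes (11 of 14) summed to 71002 to 210310 in the marrow arrays and to 20888 to 22549 at 4 h. Granulocyte and monocyte progenitor genes (10 of 11) summed to 37183 to 104290 in marrow and to 1495 to 1860 at 4 h. Bone marrow replicate 3 held the highest value of both lists. In 4 h replicate 2, the resident macrophage gene Alox15 read 2200, against 131 and 156 in the other two 4 h arrays. In 72 h replicate 2, B cell genes summed to 11693 and mast cell and eosinophil genes to 4613, against at most 988 and 281 in the other two. B cell genes (5 of 6) also summed to 10934 to 16174 in the marrow arrays, against 2613 to 3686 at 4 h and 481 to 1101 in resident macrophages. Proliferation genes (5 of 6) summed to 48474 to 64275 in the marrow, 394 to 595 at 4 h and 1978 to 8499 in resident macrophages. These sums differ in the comparisons against marrow, and their part in the results was not tested. Where the number of called Rab genes or partners in a comparison changes without the 3 arrays singled out here, both counts are given. Array medians ran from 67.3 to 93.0, and 3 arrays a group set the precision.

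The share of Rab genes that differed among the groups was near that of all genes, and a few members moved far more than the rest. Over the 7 groups, 38 of the 50 tested Rab genes differed in limma's F test at an adjusted p under 0.05, and 69.8% of all genes tested did. The 12 that did not pass were Rab1b, Rab5a, Rab5b, Rab6a, Rab7, Rab11b, Rab15, Rab17, Rab22a, Rab27b, Rab33b and Rab39b. Below, a gene is called higher or lower when its adjusted p is under 0.05 and its change is at least 1 on the log2(signal + 15) scale, which understates the change of dim genes. In all, 13 of the 50 tested members were called in at least 1 of the 6 comparisons, and 37 tested members in none. Of all 12169 genes tested, 39.4% were called in at least 1. The remaining 9 members, Rab3b, Rab3c, Rab9b, Rab25, Rab26, Rab30, Rab37, Rab40b and Rab42, were too dim to test, with group means of at most 62.6.

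**Figure D1:**
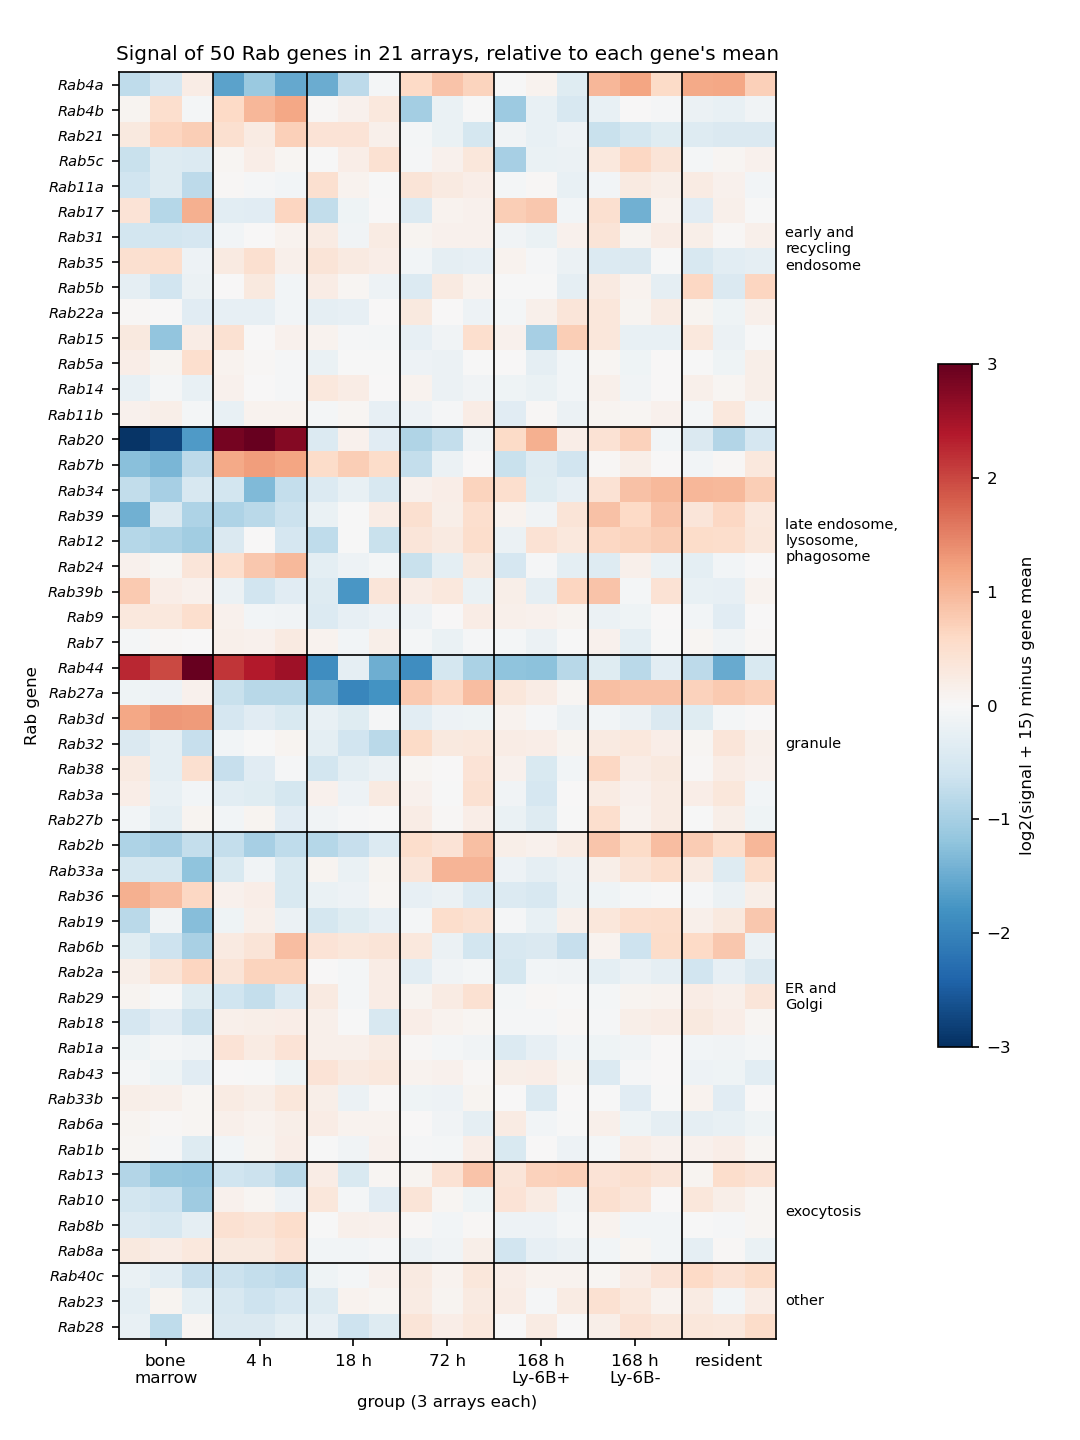
Signal of the 50 tested Rab genes (rows, grouped by role) in the 21 arrays (columns, 3 per group), as log2(signal + 15) minus the mean of that gene, with red above and blue below it. The widest swings are those of Rab20 at 4 h, of Rab44 in the marrow and at 4 h, and of Rab27a at 18 h, while most rows stay pale throughout.

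The comparison of resident macrophages with marrow monocytes held the most called Rab genes. In resident macrophages 10 Rab genes were higher, against a background of 12.9% of all genes tested, and 2 were lower, against 10.2%. The 6 with the largest rise were Rab20 (log2 fold change 1.85), Rab34 (1.65), Rab2b (1.64), Rab13 (1.41), Rab12 (1.41) and Rab39 (1.37). Rab4a (1.35), Rab7b (1.23), Rab19 (1.15) and Rab6b (1.07) were also higher, and Rab44 (-3.36) and Rab3d (-1.37) were lower. The median change was 0.27 over the 50 Rab genes and 0.05 over all genes tested. Without bone marrow replicate 1, Rab10, Rab33a and Rab40c were called higher too and Rab21 lower. In a bulk sample, fewer cells of one type and less RNA per cell cannot be told apart.

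Zymosan recruitment brought fewer calls. In 4 h monocytes 3 Rab genes were higher than in the marrow, Rab20 (5.35), Rab7b (2.33) and Rab6b (1.18), against 7.5% of all genes. At the same time 2 were called lower, Rab3d (-1.67) and Rab4a (-1.08), against 14.5%. All marrow, 4 h and 18 h arrays of Rab4a lie under 80.6. It was tested only through its signals in 72 h, Ly-6B- and resident macrophages, so its calls as higher there come from groups that let it pass. From 4 h to 18 h no Rab gene was called higher in limma's test (10.9% of all genes; 7 Rab genes were higher at an unadjusted p under 0.05), and Rab44 (-3.56) and Rab20 (-3.09) were lower, against 4.56%. From 18 h to 72 h, Rab27a (2.53), Rab4a (1.49) and Rab2b (1.27) were higher, against 9.03%, and no Rab gene was called lower in limma's test (3.46% of all genes; 7 Rab genes were lower at an unadjusted p under 0.05). Neighbouring comparisons share a group, so that their values are not independent. Here and below, counts at an unadjusted p have no share of all genes beside them and were not read against a background.

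The scaling between arrays bears on these counts. The median log2 value of an array was lower at 4 h than in the marrow by a difference of -0.36, higher at 18 h than at 4 h by 0.29, and higher at 72 h than at 18 h by 0.12. With all arrays set to one median, 8 Rab genes were higher at 4 h than in the marrow and 1 was lower, as Rab10, Rab18, Rab19, Rab4b and Rab8b joined the calls and Rab4a left them. Of all genes, 13.2% were then higher and 9.17% lower. From 4 h to 18 h, 0 were then higher and 5 lower, with Rab24, Rab27a and Rab4b added, beside 6.06% and 8.21% of all genes. From 18 h to 72 h, 3 were then higher and 1 lower (Rab7b added), beside 7.96% and 4.4%. The median change of the 50 Rab genes at 4 h against marrow was 0.13 as deposited, against -0.14 over all genes, and 0.49 against 0.23 with one median. Without the 3 arrays named above, the resident macrophages held 8 higher and 3 lower Rab genes against the marrow (Rab19 and Rab6b lost, Rab36 added). At 4 h against marrow 3 were then higher and 2 lower (Rab4a lost, Rab36 added), at 18 h 0 were higher and 3 lower (Rab27a added), and at 72 h 4 were higher and 0 lower (Rab32 added). Without 18 h replicate 1, 3 Rab genes were lower at 18 h than at 4 h (Rab27a added) and 1 was higher, Rab4a, whose arrays in both groups lie under 80.6.

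At 168 h the split by Ly-6B gave no called Rab gene. In limma's test 0 were higher in Ly-6B+ macrophages, where 1.54% of all genes were, and 0 were lower, where 2.41% were. The median change was -0.16 over the 50 Rab genes and -0.02 over all genes tested, and that difference was not tested. At an unadjusted p under 0.05, 2 Rab genes were higher and 15 lower in Ly-6B+ cells. The share of all genes at that threshold was not taken, and the shares above belong to the adjusted p and the fold. Rab5c (-0.90, adjusted p = 0.00221), Rab27a (-0.66, adjusted p = 0.00109), Rab7b (-0.61, adjusted p = 0.0256) and Rab2b (-0.60, adjusted p = 0.0267) passed the adjusted p alone, all lower in Ly-6B+ cells by less than the fold required. Leaving out Ly-6B+ replicate 1 raised the count to 1 through Rab34, and leaving out Ly-6B+ replicate 2 or 3 raised it to 1 through Rab5c. Ly-6B- macrophages of 168 h and resident macrophages differed in no Rab gene by limma's test, where 0.0411% of all genes were called higher and 0% lower. At an unadjusted p under 0.05, Rab20 (0.97, adjusted p = 0.755) and Rab5c (0.40) read higher in the Ly-6B- cells and Rab40c (-0.31) read lower.

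**Figure D2:**
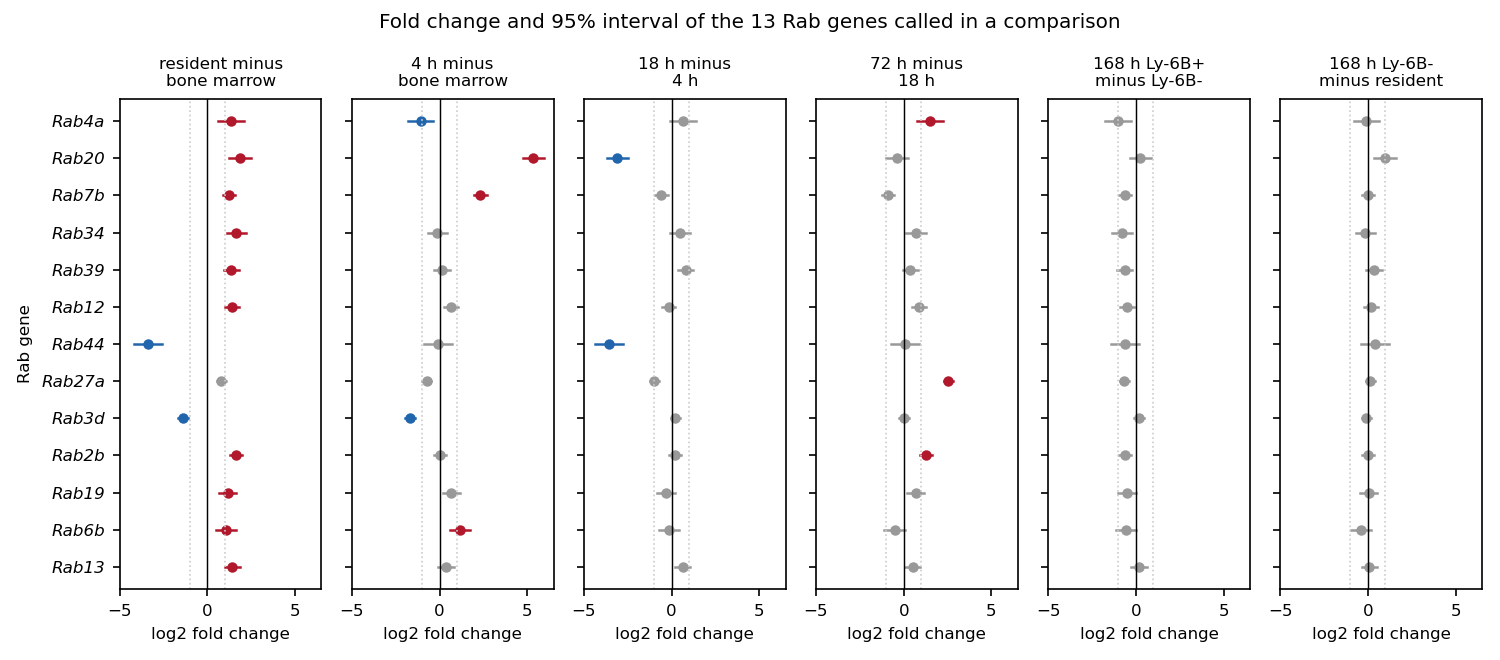
Log2 fold change of log2(signal + 15) with its 95% interval for the 13 Rab genes called in any comparison, 1 panel per comparison, with red for called higher, blue for called lower, grey for not called, and dotted lines at 1 and -1. Rab4a at 4 h against marrow is shown as called although all its arrays there lie under 80.6. Rab20 reaches 5.35 at 4 h and Rab27a 2.53 from 18 h to 72 h, and both panels of 168 h macrophages hold grey points only.

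The Rabs of the late endosome, lysosome and phagosome included 5 of the 13 called members, among 11 genes of which 9 were tested. Counts by role rest on few genes, are to be read beside the 39.4% of all genes called in any comparison, and were not tested. Rab20 works in the maturation and acidification of the phagosome, and no other member spanned as wide a range. In marrow monocytes it read 41.2, 48.0 and 118, and at 4 h 3121, 3537 and 2872. At 18 h the arrays read 307, 457 and 327 and at 72 h 214, 245 and 385. All 4 h arrays therefore stood above every other array, and 2 of the 3 marrow arrays lay under the table median of 80.6. At 168 h the signals were 625, 887 and 475 in Ly-6B+ and 567, 682 and 393 in Ly-6B- macrophages, and in resident macrophages 303, 217 and 286. The rise from marrow to 4 h was 5.35 (SE 0.296, adjusted p = 1.15e-11), the drop from 4 h to 18 h was -3.09 (adjusted p = 7.01e-08), and resident macrophages exceeded the marrow by 1.85 (adjusted p = 2.53e-05).

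The start of Rab20 is shown since this gene had the widest range in the family. The window runs from 250 bases before to 50 after the RefSeq start (GRCm38.p6, chr8:11478591-11478890, minus strand), 5′ to 3′ along the gene, and capitals mark a CACGTG E-box that begins 46 bases before the start.
Rab20: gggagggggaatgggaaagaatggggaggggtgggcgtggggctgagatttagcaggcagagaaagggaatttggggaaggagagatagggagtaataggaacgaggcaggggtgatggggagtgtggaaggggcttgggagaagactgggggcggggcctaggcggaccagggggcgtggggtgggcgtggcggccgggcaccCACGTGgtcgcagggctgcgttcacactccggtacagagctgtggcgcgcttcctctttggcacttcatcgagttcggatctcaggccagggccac
The 6-letter palindrome CACGTG stood in 6 of the 60 windows found for 48 of the 59 Rab genes (10%) and in 7.15% of all 32851 windows of the same length. The other Rab genes with it were Rab5a, Rab21, Rab23, Rab24 and Rab27a, of which Rab27a alone was called in a comparison.

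Rab7b directs traffic between late endosomes and the Golgi, and has been described as sending Toll-like receptors to the lysosome. Its signals were 852, 781 and 1181 in the marrow, 4503, 4933 and 4675 at 4 h and 3006, 3423 and 3008 at 18 h. They were 1252, 1816 and 2083 at 72 h, 1295, 1559 and 1381 in Ly-6B+ and 2099.8, 2324 and 2067 in Ly-6B- macrophages of 168 h, and 1934, 2094 and 2551 in resident macrophages. Marrow arrays were the lowest and 4 h arrays the highest, with no overlap with any other group. The rise at 4 h was 2.33 (SE 0.167, adjusted p = 5.08e-10). From 4 h to 18 h the change was -0.58 (adjusted p = 0.00842) and from 18 h to 72 h -0.90 (adjusted p = 0.000304), both short of the required fold. The 2 other probe sets of the gene gave 2.91 and 1.17 for the rise at 4 h. The mean of the probe sets put the difference of resident macrophages and marrow at 0.99, which ends that call.

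**Figure D3:**
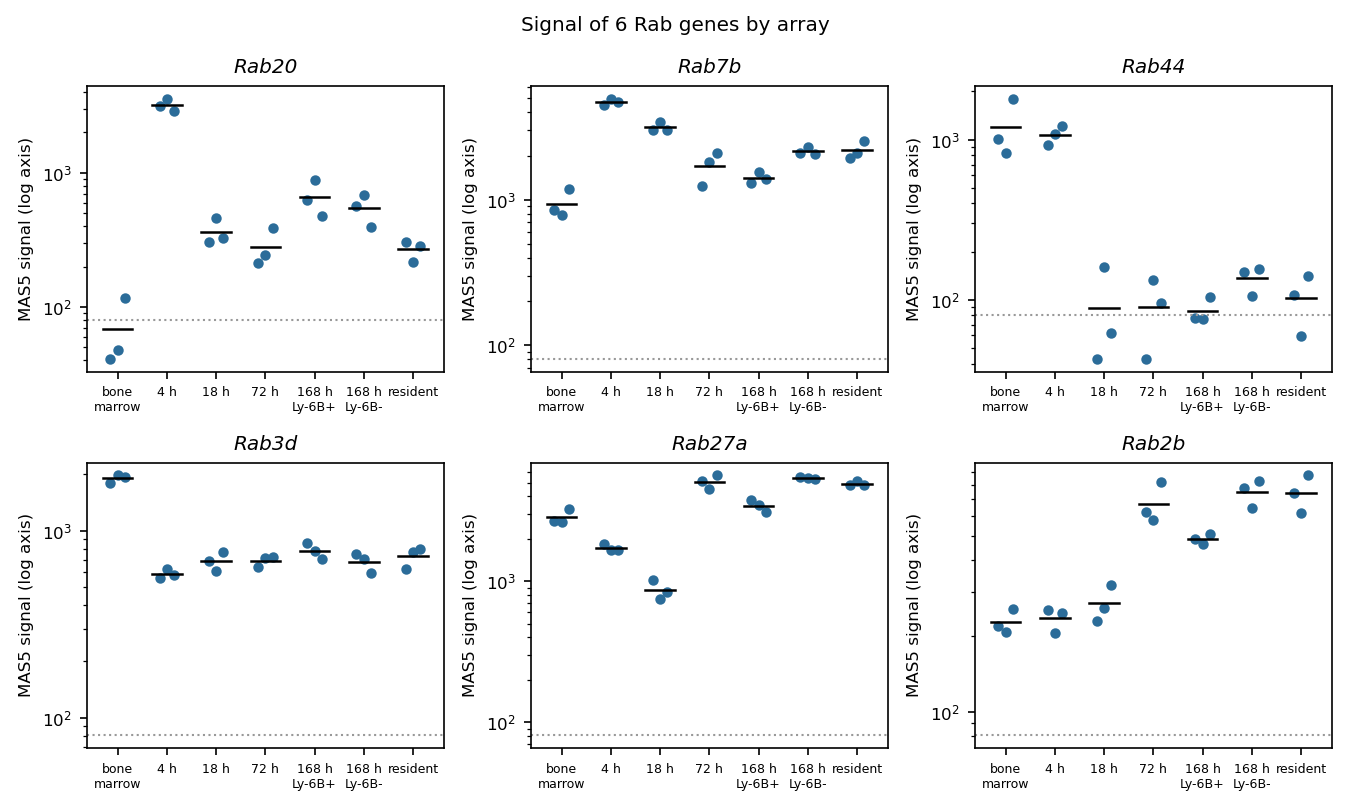
MAS5 signal (log axis) of 6 Rab genes in each array, with points for arrays, bars for group means and a dotted line at the table median of 80.6. Rab20 and Rab7b are highest at 4 h, Rab44 is high in marrow and 4 h arrays only among these groups, Rab3d is highest in the marrow, Rab27a dips at 18 h, and Rab2b is lower up to 18 h than from 72 h on.

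Rab34, Rab12 and Rab39 shared a pattern of low signals in the marrow and higher ones in resident macrophages. Rab34, which acts in macropinocytosis and in phagosome maturation, read 59.5, 46.8 and 72.9 in the marrow, 69.4, 34.5 and 60.7 at 4 h and 77.9, 91.6 and 73.5 at 18 h. At 72 h it read 120.1, 127 and 183, at 168 h 161, 80.7 and 90 in Ly-6B+ and 151, 212 and 228 in Ly-6B- cells, and in resident macrophages 233, 228 and 192. Resident arrays all exceeded the marrow arrays, by 1.65 (SE 0.266, adjusted p = 2.86e-05), and Ly-6B+ replicate 1 fell within the range of the Ly-6B- arrays.

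Rab12, which sends the transferrin receptor to lysosomes, read 278, 266 and 245 in the marrow and 766, 748 and 655 in resident macrophages. Its inflamed arrays read 381, 523 and 359 at 4 h, 297, 509.9 and 321 at 18 h, 674, 630.0 and 752 at 72 h, 454, 703 and 648 in Ly-6B+ and 797, 823 and 873 in Ly-6B- cells. Replicate 2 was the highest of its group at 4 h and at 18 h, and the resident value exceeded the marrow by 1.41 (SE 0.19, adjusted p = 3.25e-06). The other probe set gave 0.60 for that difference.

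Rab39, found on late endosomes and phagosomes, read 76.7, 171 and 116 in the marrow, 115, 127 and 146 at 4 h and 203, 232 and 274 at 18 h. Later values were 333, 268 and 337 at 72 h, 255, 217 and 310.1 in Ly-6B+ cells, 440.0, 361 and 438 in Ly-6B- cells and 308, 366 and 298 in resident macrophages. The 18 h arrays already lay above all marrow and 4 h arrays, although that step (0.80, adjusted p = 0.00482) did not reach the fold required. The resident value exceeded the marrow by 1.37 (adjusted p = 1.84e-05).

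Of the other members of this role, Rab7, the main Rab of the late endosome, was steady by the probe set used. Its signals were 13314, 14111 and 13936 in the marrow, 15266, 15028 and 16726 at 4 h, 14801, 12984 and 15603 at 18 h and 13224, 12078 and 13427 at 72 h. They were 13186, 12103 and 13658 in Ly-6B+ and 15087, 11158 and 13693 in Ly-6B- macrophages and 14459.9, 12785 and 14069 in resident macrophages. Its change ran from -0.16 to 0.18 over the 6 comparisons, and no adjusted p was under 0.164. Its other probe set, dimmer but above 80.6 on all arrays, gave -0.52 for resident macrophages against marrow, 0.49 at 4 h, -0.69 from 4 h to 18 h and -0.38 from 18 h to 72 h. Rab24, known from autophagy, changed by -0.93 from 4 h to 18 h (adjusted p = 0.000736), and Rab9, of transport from endosomes to the Golgi, by -0.52 in resident macrophages against marrow (adjusted p = 0.00132). Rab39b was low and did not pass the F test, and Rab9b and Rab42 were too dim to test.

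The Rabs of secretory granules and lysosome-related organelles had 3 called members of 11, of which 7 were tested, and they moved in different directions. Rab44 is an unusually large Rab with calcium-binding motifs that has been described in the release of mast cell granules. It read 1005, 822 and 1795 in the marrow and 925, 1081 and 1223 at 4 h, then 42.8, 160.4 and 61.9 at 18 h and 43.0, 133 and 95.2 at 72 h. Signals were 76.9, 75.5 and 104 in Ly-6B+, 149, 106 and 156 in Ly-6B- and 107, 59.6 and 140.4 in resident macrophages. Every marrow and 4 h array stood above every array of the other groups. The fall from 4 h to 18 h was -3.56 (SE 0.383, adjusted p = 3.25e-07) and resident macrophages lay below the marrow by -3.36 (adjusted p = 3.39e-07), while 4 h and marrow arrays overlapped (-0.09, adjusted p = 0.871). The summed neutrophil genes were also lower at 18 h (6321 to 7792) than at 4 h (20888 to 22549). They summed to 19617 to 20031 in Ly-6B+ and 20160 to 21588 in resident macrophages, where Rab44 was low. In both of these groups 5 of the genes, Camp, Ltf, S100a9, Mmp8 and Cxcr2, had a group mean under 80.6. Of the 11 neutrophil genes, Camp (56.4) and Ltf (79.6) had group means under 80.6 at 4 h. At 18 h Camp (36.8), S100a9 and Cxcr2 lay under it, and Ltf had a group mean of 88.4. The part of such cells in the Rab44 signal was not tested.

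Rab3d, a Rab of regulated granule release, was high in marrow monocytes only. It read 1793, 1973 and 1940.3 there, 559.6, 625 and 581 at 4 h and 685, 612 and 772 at 18 h. All other groups lay in the same range, with 637, 711 and 724 at 72 h, 864, 776 and 709 in Ly-6B+ cells, 753, 707 and 591 in Ly-6B- cells and 621, 766 and 799.9 in resident macrophages. The marrow arrays did not overlap any other group, and the difference was -1.67 at 4 h (SE 0.132, adjusted p = 1.91e-09) and -1.37 in resident macrophages (adjusted p = 2.94e-08). The 3 other probe sets gave -1.44, -1.45 and -0.91 at 4 h. For resident macrophages against marrow they gave -1.51, -0.87 and -0.40, and 1 of them kept the call. Summed progenitor genes were lower at 4 h as well, with Mpo at 12013 to 33879 in the marrow and 70.7 to 91.8 at 4 h, and their part was not tested. Without bone marrow replicate 3 the differences of Rab3d were -1.65 at 4 h and -1.36 in resident macrophages.

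Rab27a tethers lysosome-related organelles and granules to actin and the plasma membrane, and its loss causes the pigment and immune defect of Griscelli syndrome. The arrays read 2678, 2637 and 3237 in the marrow, 1839.8, 1657 and 1659 at 4 h and 1024, 749 and 838 at 18 h. At 72 h they read 5124, 4533 and 5622. The 168 h arrays gave 3741, 3452 and 3076 in Ly-6B+ and 5488, 5375 and 5316 in Ly-6B- cells, and the resident arrays 4788, 5113 and 4838. Signals thus stepped down from marrow to 4 h and from 4 h to 18 h without overlap and were above all of these at 72 h. The step from 18 h to 72 h was 2.53 (SE 0.121, adjusted p = 6.85e-12). Those before it were -0.72 (adjusted p = 4.64e-05) and -0.98 (adjusted p = 1.93e-06), both under the required fold, and the second was called without 18 h replicate 1, without 4 h replicate 2 or without 4 h replicate 3. The 3 other probe sets of the gene had means of at most 72.3 and gave 0.21, 1.80 and 0.90 for the rise at 72 h.

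RefSeq gives 2 starts for Rab27a, and the window of the one with an E-box is shown for the member with the largest rise in the later macrophages (GRCm38.p6, chr9:73063898-73064197, plus strand, 5′ to 3′). The capitals mark CACGTG, which begins 246 bases before that start.
Rab27a: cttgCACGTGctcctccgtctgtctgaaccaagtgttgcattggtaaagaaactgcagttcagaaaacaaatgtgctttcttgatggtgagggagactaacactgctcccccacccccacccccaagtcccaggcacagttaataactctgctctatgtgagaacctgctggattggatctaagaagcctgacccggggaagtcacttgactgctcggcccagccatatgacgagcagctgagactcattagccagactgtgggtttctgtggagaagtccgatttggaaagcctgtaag
The window of the other start held none of the 6 motifs searched.

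Among the remaining granule Rabs, Rab32, which builds melanosomes and related organelles, changed by 0.95 from 18 h to 72 h (adjusted p = 7.27e-06), just short of the fold. It was called there without 72 h replicate 2 or without 18 h replicate 1. Leaving out any 1 array of these groups brought the count in that comparison to 4, with a gene added that was Rab32, Rab12, Rab39b, Rab33a or Rab7b depending on the array. Rab38, its close relative, changed by 0.50 (adjusted p = 0.0806, and -0.17 by its other probe set). Rab3a, a Rab of synaptic and other regulated secretion, changed by 0.11 (adjusted p = 0.678). From 4 h to 18 h the probe sets used gave 0.02 for Rab38 and 0.48 for Rab3a, and the others 1.08 and 2.15. That other probe set of Rab3a had a mean signal of 74.4. With the mean of its probe sets, Rab3a was called higher at 18 h than at 4 h. Rab27b was low and did not pass the F test, and Rab3b, Rab3c, Rab26 and Rab37 were too dim to test.

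Of the Rabs of the endoplasmic reticulum and Golgi, 3 of 14 were called, and 13 were tested. Rab2b, of membrane traffic between these compartments and of autophagosome clearance, read 219, 208 and 257 in the marrow, 253, 206 and 246 at 4 h and 229.5, 259.8 and 319 at 18 h. From 72 h on it was higher, with 624, 578 and 818 at 72 h and 741, 620.3 and 871 in resident macrophages. At 168 h it read 489, 466 and 507 in Ly-6B+ and 774, 649 and 831 in Ly-6B- cells, without overlap. The rise from 18 h to 72 h was 1.27 (SE 0.166, adjusted p = 5.41e-06) and resident macrophages exceeded the marrow by 1.64 (adjusted p = 6.39e-08). The 4 other probe sets gave 1.26, 1.34, 0.63 and 0.60 for the former. For the latter they gave 1.73, 2.34, 0.79 and 0.46, and 2 of them kept the call.

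The window of Rab2b is shown because it is one of 2 Rab windows, with that of Rab32, that hold GAGGAAGT, a core site of the myeloid factor PU.1 (GRCm38.p6, chr14:52279346-52279645, minus strand, 5′ to 3′). The site lies on the other strand, so the capitals read ACTTCCTC, from 175 bases before the start.
Rab2b: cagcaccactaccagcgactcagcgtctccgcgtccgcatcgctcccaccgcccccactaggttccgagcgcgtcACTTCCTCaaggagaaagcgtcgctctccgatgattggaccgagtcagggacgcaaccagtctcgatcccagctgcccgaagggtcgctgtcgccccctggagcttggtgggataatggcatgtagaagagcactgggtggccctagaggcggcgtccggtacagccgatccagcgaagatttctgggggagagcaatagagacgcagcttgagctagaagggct
That motif stood in 3.33% of Rab windows and in 3.2% of all windows.

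Rab6b, a Golgi Rab of retrograde transport, had probe sets that differed widely. The probe set used read 492, 409 and 321 in the marrow, 775, 837 and 1229 at 4 h and 849, 812 and 842 at 18 h. Later arrays read 800.2, 563 and 430.1 at 72 h, 453, 469 and 392 in Ly-6B+ cells, 689, 413 and 945 in Ly-6B- cells and 970.1, 1135 and 569 in resident macrophages. The Ly-6B- and resident arrays were widely spread, and all of the resident arrays lay above those of the marrow. It gave 1.18 (adjusted p = 0.00145) at 4 h against marrow, where the 3 others gave 0.02, 0.21 and 0.16. For resident macrophages against marrow it gave 1.07 (adjusted p = 0.00337), where the others gave 4.80, 2.76 and 1.17. The first call was lost without 4 h replicate 3 (0.98) and with the mean of the probe sets (0.39). The second was lost without bone marrow replicate 3 (0.91), without resident replicate 1 (0.98) or without resident replicate 2 (0.87).

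Rab19, also assigned to the Golgi, read 159.6, 272 and 112 in the marrow and 328, 361 and 521 in resident macrophages, a difference of 1.15 (SE 0.239, adjusted p = 0.000462). That call ended without bone marrow replicate 3 (0.87) or without resident replicate 3 (0.95). Rab33a, of Golgi and secretory vesicles, was low and highest at 72 h, at 109, 180.3 and 179, against 52.0, 51.8 and 26.5 in the marrow. Its other arrays read 54.4, 74.7 and 55.4 at 4 h, 86.4, 69.1 and 86.3 at 18 h, 71.0, 64.7 and 69.5 in Ly-6B+ cells, 93.9, 111 and 123 in Ly-6B- cells and 101, 58.1 and 123 in resident macrophages, and it was called in no comparison. Rab36 changed by -0.88 in resident macrophages and -0.92 at 4 h against the marrow (adjusted p = 0.000727 and 0.000499), and was called lower in both without bone marrow replicate 3. The call at 4 h was also made without 4 h replicate 1 or without 4 h replicate 2. The other probe sets of Rab36 gave -1.34 and -1.205 in resident macrophages and -0.77 and -0.76 at 4 h, the second of them with a mean signal of 14.3.

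Rab2a, the close copy of Rab2b, was not called, and its probe sets went opposite ways. The one used gave -0.82 (adjusted p = 6.4e-05) for resident macrophages against marrow, and the next by mean signal gave 0.84 and 0.78. It was chosen for mention after its values were seen. Rab1a, Rab18, Rab29 and Rab43 passed the F test and stayed under the fold in all 6 comparisons by the probe sets used. A dimmer probe set of Rab1a, above 80.6 on all arrays, gave 1.11 at 4 h against marrow, where the one used gave 0.45. Rab1b, Rab6a and Rab33b did not pass the F test, and Rab30 was too dim to test.

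**Figure D4:**
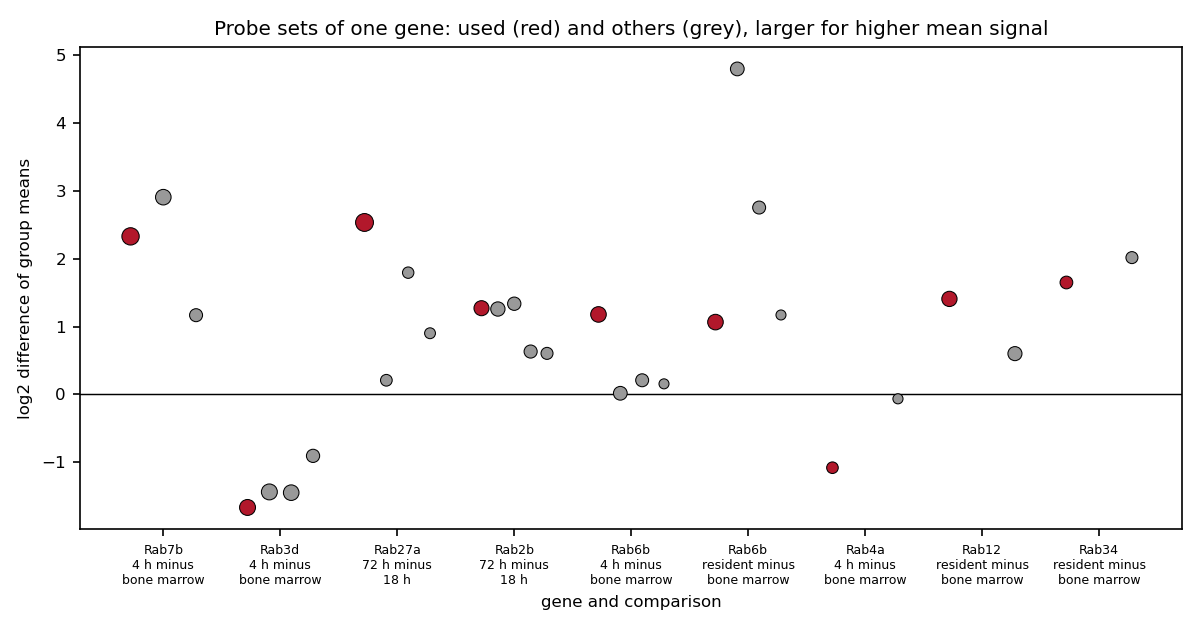
Difference of group means of log2(signal + 15) for each probe set of a gene, in 9 pairs of gene and comparison, with red for the probe set used, grey for others and larger points for higher mean signal. The 4 probe sets of Rab6b run from 1.07 to 4.80 for resident macrophages against marrow and from 0.02 to 1.18 at 4 h, and those of Rab3d all lie below 0.

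The Rabs of the early and recycling endosome had 1 called member of 15, of which 14 were tested. Rab5a, which organises the early endosome and new phagosome, read 6279, 5771 and 7692 in the marrow, 5886, 5571 and 5345 at 4 h, 4764, 5362 and 5442 at 18 h and 4912, 4811 and 5370.0 at 72 h. It read 5509, 4545 and 5137 in Ly-6B+, 5645, 5017 and 5497 in Ly-6B- and 5423, 5003 and 6189 in resident macrophages, with the single highest value in marrow replicate 3. The marrow and 4 h arrays overlapped. Its change ran from -0.24 to -0.04 and the lowest adjusted p was 0.0885.

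Rab11a, the central Rab of slow recycling, read 5303, 6107 and 4666 in the marrow, below all arrays of 4 h (8161, 7805 and 7612) and of resident macrophages (9459, 8802 and 7575). Its other arrays read 11182, 8541 and 7973 at 18 h, 10489, 9667 and 9169 at 72 h, 7631, 8181 and 6835 in Ly-6B+ cells and 7539, 9717 and 9063 in Ly-6B- cells. The change was 0.69 (adjusted p = 0.00023) in resident macrophages and 0.56 (adjusted p = 0.00155) at 4 h against marrow, under the fold required in both. The other probe set, also above 80.6 on all arrays, gave 1.02 and 0.88, the former past the fold.

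Rab4a, of fast recycling, was the called member, and it is low. Its arrays read 26.6, 34.8 and 67.2 in the marrow, 8.05, 17.3 and 9.14 at 4 h and 10.2, 25.8 and 52.3 at 18 h, all under the table median of 80.6. Then they read 91.1, 112 and 97.5 at 72 h, 54.2, 60.3 and 40.1 in Ly-6B+, 125, 146 and 89.7 in Ly-6B- and 139, 143 and 101 in resident macrophages. Resident macrophages exceeded the marrow by 1.35 (SE 0.345, adjusted p = 0.00276) and 72 h exceeded 18 h by 1.49 (adjusted p = 0.00228). Rab4a passed the filter only through its 9 arrays above 80.6, those of 72 h, Ly-6B- and resident macrophages. Both calls thus set groups that let it be tested against groups under the table median. The other probe set, under 80.6 on all arrays, gave 1.66 and 0.64 for them, the second short of the fold. The lower value at 4 h against marrow (-1.08, adjusted p = 0.0135) sets apart signals that are all under the table median, and it was lost without bone marrow replicate 3 (-0.80), without 4 h replicate 1 (-0.99) and with a common array median (-0.72). The other probe set gave -0.06 there.

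Rab4b, its close relative, read 1356, 1811 and 1241 in the marrow and 1955, 2583 and 2875 at 4 h, which was 0.74 apart (adjusted p = 0.011). The remaining arrays read 1308, 1394 and 1612 at 18 h, 625, 1111 and 1272 at 72 h, 598, 1094 and 917 in Ly-6B+ cells, 1106, 1298 and 1259.6 in Ly-6B- cells and 1127, 1104 and 1184 in resident macrophages. Its highest arrays were therefore those of 4 h, where the probe set used for Rab4a was lowest, and the difference between the 2 genes was not tested. Rab5c, a further Rab of the early endosome, read 441, 769 and 781 in Ly-6B+ and 1119, 1373 and 1170.0 in Ly-6B- cells, with Ly-6B+ replicate 1 the lowest. Rab21, of integrin uptake, changed by -0.97 in resident macrophages against marrow (adjusted p = 1.35e-05), just short of the fold. Rab14, Rab31 and Rab35 passed the F test and no fold, Rab5b, Rab11b, Rab15, Rab17 and Rab22a did not pass it, and Rab25 was too dim to test.

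The Rabs of polarised exocytosis, which deliver vesicles from the Golgi and recycling endosomes to the surface, were 4, with 1 called. Rab13 read 102, 82.3 and 81.7 in the marrow, 127, 123 and 108 at 4 h and 237, 142 and 208 at 18 h. It read 212, 276 and 374 at 72 h, 263, 332 and 341 in Ly-6B+, 269.8, 286 and 264 in Ly-6B- and 212, 295 and 278 in resident macrophages. No later array reached down to the marrow values, and resident macrophages exceeded them by 1.41 (SE 0.208, adjusted p = 1.03e-05). Rab8b changed by 0.84 at 4 h (adjusted p = 5.46e-08) and Rab10 by 0.93 in resident macrophages (adjusted p = 0.000303), each against marrow, and Rab8a by -0.42 in that last comparison, all under the fold. The 2 other probe sets of Rab10 gave 0.82 and -0.11 for resident macrophages.

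The last 4 genes have other or mixed roles, and 3 were tested. Rab40c, which carries a SOCS box and works with ubiquitin ligases, read 901, 824 and 634 in the marrow, 661, 623 and 591 at 4 h and 951, 986 and 1131 at 18 h. Its later arrays read 1242, 1123 and 1318 at 72 h, 1188, 1118 and 1119 in Ly-6B+, 1072, 1202 and 1368 in Ly-6B- and 1573, 1395 and 1549.8 in resident macrophages. All 18 h arrays lay above all marrow and 4 h arrays, and the largest change, 0.94 for resident macrophages against marrow (adjusted p = 5.59e-06), stayed under the fold. Rab28 changed by 0.71 in that comparison (adjusted p = 0.00111), Rab23 was low, and Rab40b was too dim to test.

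Searched together, the starts of the Rab genes did not stand far from other genes for these motifs. Each motif was searched on both strands of the RefSeq windows (GRCm38.p6). The AP-1 site TGANTCA stood in 5.0% of 60 Rab windows and 7.81% of all, the CRE TGACGTCA in 3.33% and 1.79%, the C/EBP site TTGCNNAA in 6.67% and 10.8%, and the NF-kB consensus in 5.0% and 5.8%. Their base composition differed more, with a median of 61.2% G and C in Rab windows against 52.7%, and 19.5 CG pairs against 7.0. The windows compared for motifs were not matched for composition, and its part in the motif shares was not tested. A match of letters is a description and not a bound site.

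The partners of the Rab cycle were read in 4 lists, for which the shares of all genes called are those given above. For resident macrophages against marrow, 4 h against marrow, 18 h against 4 h and 72 h against 18 h in turn, the median change over all genes tested was 0.05, -0.14, 0.14 and 0.03. It was 0.21, -0.09, 0.06 and 0.10 over the activators, 0.25, -0.33, 0.45 and 0.11 over the inactivators, and 0.14, -0.26, 0.28 and 0.02 over the effectors. With one median for all arrays the values of 4 h against marrow and 18 h against 4 h became 0.28 and -0.23 over the activators, 0.03 and 0.16 over the inactivators and 0.11 and -0.01 over the effectors, and 0.23 and -0.16 over all genes. That scaling also turns the split of all genes at 4 h from 7.5% higher and 14.5% lower to 13.2% and 9.17%, and at 18 h from 10.9% and 4.56% to 6.06% and 8.21%. The splits of the lists given next with one median are to be read beside these shares. Among 34 tested activators, many of them exchange factors with a DENN domain, 4 were higher and 2 lower in resident macrophages than in the marrow. The largest rises were those of Dennd4a (2.50) and Rin2 (1.92), an exchange factor of Rab5, and the falls those of Rin3 (-1.30) and Rab3ip (-1.18). At 4 h against marrow, 3 were higher, with Rab3il1 (3.03), an exchange factor of Rab3 and Rab8 proteins, and Rin2 (1.88) ahead, and 3 lower, with Dennd2c (-1.48) and Rin3 (-1.18) ahead. With one median for all arrays that split was 6 higher and 1 lower, and without the 3 arrays singled out above it was 4 and 3. Dennd2c had a group mean of 54.2 at 4 h, under 80.6. From 4 h to 18 h, 5 were higher, led by Dennd2a (2.29) and Dennd4c (1.65), and 0 lower in limma's test (6 at an unadjusted p under 0.05). The split was 3 and 4 with one median, and 4 and 2 without those 3 arrays. From 18 h to 72 h, Dennd4a (1.46) and Dennd2c (1.33) were higher and Rab3il1 was lower (-2.47).

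The 34 tested inactivators, which carry a TBC domain, included 8 that were lower at 4 h than in the marrow and 0 that were higher in limma's test (4 at an unadjusted p under 0.05). The largest falls were those of Tbc1d31 (-3.16) and Tbc1d2 (-2.64), the latter known to act on Rab7. Tbc1d2 had group means of 56.7 at 4 h and 23.8 in resident macrophages, both under 80.6. With one median the split was 2 higher and 6 lower, and without the 3 arrays 0 and 9. From 4 h to 18 h, 6 were higher, led by Evi5 (1.92) and Sgsm3 (1.73), and 0 lower in limma's test (3 at an unadjusted p under 0.05), or 4 and 0 with one median and 7 and 0 without the 3 arrays. Sgsm3 had a group mean of 16.4 at 4 h, under 80.6, and its change was imprecise (SE 0.591, adjusted p = 0.0241 in limma's test). In resident macrophages against marrow 6 were higher, led by Evi5 (2.43) and Tbc1d19 (1.73), and 4 lower, led by Tbc1d2 (-3.28) and Tbc1d9 (-2.70), or 6 and 5 without the 3 arrays. Tbc1d9 had a group mean of 55.9 in resident macrophages, under 80.6. From 18 h to 72 h, 4 were higher, led by Evi5 (1.72) and Tbc1d19 (1.41), and Tbc1d9 was lower (-2.18), or 3 and 2 without the 3 arrays. Tbc1d7, called lower at 4 h (-1.40) and higher at 18 h (1.57), is better known as a subunit of the TSC complex. Its group mean at 4 h was 53.1, under 80.6.

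Of 65 listed effectors and tethers, 52 were tested. In resident macrophages 6 were higher than in the marrow, led by Rab11fip5 (3.85), a partner of Rab11, and Rilp (2.15), which links Rab7 to the dynein motor. Another 4 were lower, led by Mical1 (-3.01) and Rab11fip1 (-2.03), or 6 and 3 without the 3 arrays. The group mean of Rab11fip1 in resident macrophages was 64.6, under 80.6. At 4 h against marrow, 3 were higher, led by the Golgi tether Uso1 (1.40) and Rab11fip1 (1.22), and 7 lower, led by the exocyst subunit Exoc6 (-2.04) and Lrrk2 (-1.47), a kinase that phosphorylates Rab proteins. That split turned to 7 higher and 3 lower with one median, as that of all genes did, and was 4 and 5 with quantile normalization and 3 and 8 without the 3 arrays. From 4 h to 18 h 5 were higher, led by Rilp (2.05) and Myo7a (2.03), and 3 lower, led by Rab11fip1 (-1.62) and Mical1 (-1.34), against 4 and 6 with one median and 6 and 2 without the 3 arrays. From 18 h to 72 h, 3 were higher, led by Rilpl1 (2.76) and Lrrk2 (1.93), and Rab11fip1 was lower (-1.15), or 3 and 2 with one median. Rilpl1 had a group mean of 56.4 at 18 h, under 80.6.

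Of 10 tested genes of escort and prenylation, Chml, a second Rab escort protein, was lower at 4 h than in the marrow (-1.02) and was the only one called in any comparison. With one median that call ended and 3 genes of the list were higher, and with quantile normalization it ended too. At 168 h, Tbc1d9 was higher (1.69) and Dennd2c lower (-1.08) in Ly-6B+ than in Ly-6B- macrophages, the only genes of these 4 lists called there. Tbc1d9 had a group mean of 71.2 in the Ly-6B- cells, under 80.6. Between Ly-6B- and resident macrophages 0 genes of the lists were called in limma's test, and 1 effector differed at an unadjusted p under 0.05.

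**Figure D5:**
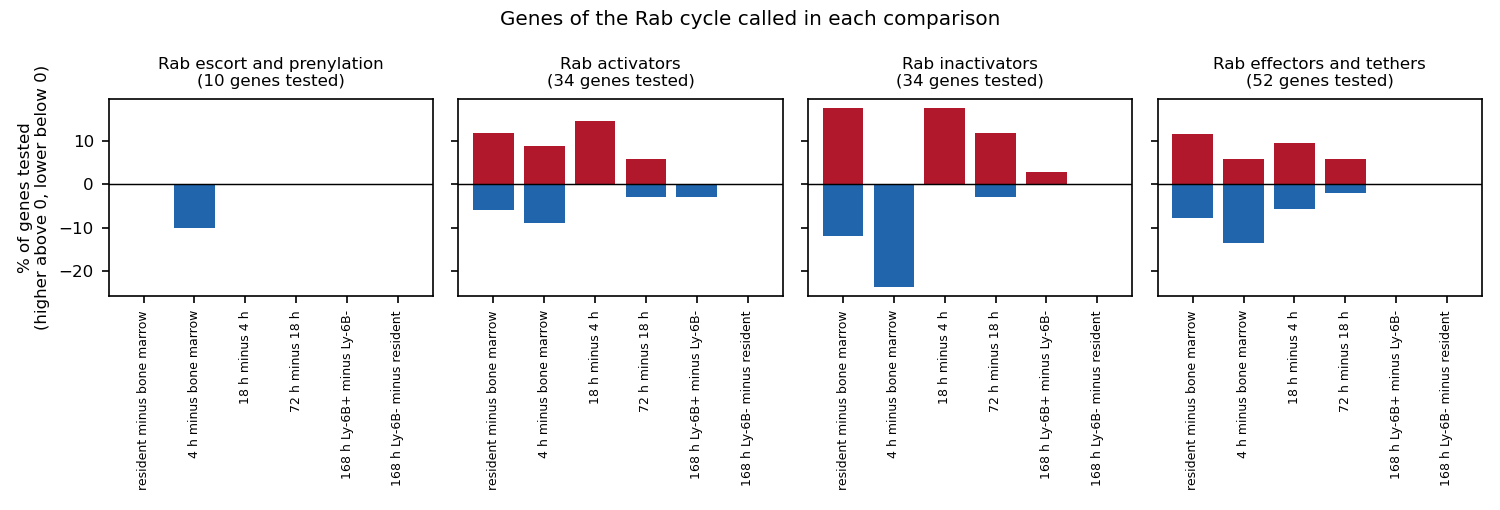
Share of the tested genes of 4 Rab cycle lists (1 panel each) that were called higher (red, above 0) or lower (blue, below 0) in each of the 6 comparisons, with signals as deposited. Inactivators reach 23.5% lower at 4 h against marrow (17.6% lower and 5.88% higher with one array median), and the 2 comparisons of 168 h macrophages hold at most 1 called gene of a list in a direction.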

How the data were processed

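The deposited values are MAS5 signal intensities of 21 Affymetrix arrays, made with Affymetrix Expression Console 1.2 per the submitters' processing notes. The 2% trimmed mean of every array was 500.0, so the authors had scaled the intensities before deposit. The genome build was not given in the sources used here. RNA of sorted cells (100 ng) was amplified in 2 cycles, per the labels' protocols.

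Of 45101 probe sets, 34958 had 1 gene symbol, 932 several and 9211 none. Values became log2(signal + 15), and genes above 80.55 in at least 3 arrays were fitted with limma 3.58.1 in R 4.3.3 (7 groups, 14 residual degrees of freedom, eBayes with trend, Benjamini-Hochberg over all 12169 genes). A call needed an adjusted p under 0.05 and a log2 change of at least 1. The members and lists were chosen with earlier results of these data known, and roles were assigned by hand. Per-array signals are given for the 14 members of widest range and for Rab5a, Rab7 and Rab11a. Every called member is named, and of each Rab cycle list the 2 largest called changes in a direction. Some values of other members were added after they were seen. The procedure was tested on simulated data. Promoter windows are RefSeq's of GRCm38.p6.

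Replicate numbers come from the labels, which do not say that they mark a shared animal or day. Same-numbered arrays were marked as paired where their deviations correlated above 0.1 in all 3 pairs. That held between the 168 h groups (r = 0.296, 0.276 and 0.178). The main fit was unpaired in every comparison, that of the 168 h groups included, and a replicate block was fitted only as an alternative. In 4 other comparisons all 3 correlations were above 0 but not all above 0.1 (0.0305 to 0.195), and at 4 h against marrow they were mixed in sign. Alternatives were other pseudocounts, scalings, filters, probe set rules and variance priors, no minimum fold, the replicate block, only the arrays compared, and arrays left out singly or 3 together. The alternative scalings of the Rab cycle lists were chosen after seeing the data. Where arrays of a group come from 1 mouse or a pool is not stated, and the p-values measure the spread between arrays.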

Additional observations from a re-analysis of the deposited data

How the results depend on the processing

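The 38 Rab genes that differed over the groups became 42 with the replicate block, which changed no call in the 6 comparisons. Every array correlated best with its own replicate number in 4 of the 6, a hint from the data and not from the design. With a common array median, 9 Rab genes were called at 4 h against marrow and 5 at 18 h against 4 h. A filter at the 75th percentile left 7 calls for resident macrophages against marrow, as fewer genes were tested, and averaging all probe sets per gene left 3 at 4 h against marrow. Without the trend in eBayes 1 gene, Rab4a, was called between the 168 h groups. With no minimum fold the calls were 31 for resident macrophages against marrow, 21 at 4 h, 16 at 18 h, 12 at 72 h and 4 between the 168 h groups. The share of all genes called with no minimum fold is not set beside these counts, which therefore are no result about the family. Leaving out single arrays gave 36 to 39 genes over the groups, 11 to 16 calls for resident macrophages against marrow, 4 to 6 at 4 h, 2 to 4 at 18 h, 4 at 72 h, 0 to 1 between the 168 h groups and 0 between Ly-6B- and resident macrophages. No value changed its direction under an alternative listed here for a called Rab gene. A pseudocount of 60 ended the calls of Rab4a (0.88 in resident macrophages, -0.51 at 4 h, 0.87 at 72 h), Rab19 (0.97) and Rab6b (0.99, resident macrophages). Without a filter, Rab40b was called for resident macrophages against marrow and for 72 h against 18 h. Signals near the table median carry the least certain changes, and the cause of these shifts was not tested.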
